A study of Homo sapiens with 2 samples.

Results

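SIAH1 and SIAH2 are the genes of the SIAH ubiquitin ligases, and both were taken by their symbols from the deposited gene table, as 2 of the 60671 genes listed. SIAH proteins are RING-type E3 ligases, which bring a ubiquitin-loaded E2 enzyme together with a substrate and so mark the substrate for the proteasome. They bind substrates through a conserved C-terminal domain, and shorten the life of regulators such as the prolyl hydroxylases of the hypoxia response. ACK1 itself, the kinase encoded by TNK2, is among the proteins that SIAH ligases are known to hand to the proteasome, which places these genes next to the target of the inhibitor used here.

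RNA was measured by sequencing in C4-2B, an established castration-resistant prostate cancer (CRPC) line. The vehicle library came from cells given vehicle alone, and the (R)-9b library from cells given 1 µM (R)-9b, also called dz67, overnight. (R)-9b is a small-molecule inhibitor of ACK1, and its labels state no other change to the cells. There was 1 library per condition, so no spread between replicates could be measured, no p-value was computed, and every interval below covers the counting error of these 2 libraries only.

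Depth was 65207444 counts for the vehicle library and 57653965 for the (R)-9b library. Mitochondrially encoded genes took 1.49% of the vehicle counts and 9.54% of the (R)-9b counts, and the log2 ratios of SIAH1 and SIAH2 were -1.99 and -0.68 also when the scaling left those genes out. The labels give the cell type as breast cancer, whereas all 8 prostate markers examined passed the minimum of 10 counts, and their summed level was 4833 CPM (counts scaled to a common library size) without the inhibitor and 9804 CPM with it. KLK3, the gene of prostate-specific antigen, had 146597 and 297728 counts. Of 5 breast markers, ESR1 had 2 counts in each library, SCGB2A2 and ANKRD30A had 0, and PGR had 10 and 2, while PIP, an androgen-regulated secreted protein, had 124 and 595. None of 4 leukocyte markers reached 10 counts, whereas 3 of 5 stromal and endothelial markers did, with a summed level of 28.4 CPM and 43.0 CPM. Of these COL1A1 had 1114 and 2004 counts, VWF had 769 and 411 and PECAM1 had 8 and 14, while DCN had 0 and 2 and COL1A2 had 1 and 3. These gene counts were not matched by the deposited transcript estimates. There COL1A1 had a log2 ratio of 0.30 (-0.49 to 1.09), against 1.08 (0.98 to 1.19) from gene counts. VWF and PECAM1 gave no ratio from those estimates. Whether these marker differences had a part in the SIAH values was not tested.

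SIAH1 (ENSG00000196470) lies on the minus strand at chr16:48356364-48448402 of GRCh38 and has 8 annotated transcripts in GENCODE 29. A pair of them carried nearly all of its estimated counts. SIAH1-203 starts at position 48385450, and SIAH1-201 starts 19549 bases further downstream at position 48365901. They share a last exon of 1900 bases and differ in their first exons, of 247 bases in SIAH1-203 and 515 bases in SIAH1-201. The shared exon holds the whole reading frame of SIAH1-203, 282 codons. SIAH1-201 begins its reading frame in its own first exon and reads into the same frame, giving 313 codons, of which 31 are extra at the N-terminal end. SIAH2 (ENSG00000181788) lies on the minus strand at chr3:150741127-150763477, with 3 transcripts, and its main transcript SIAH2-201 encodes 324 codons in 2 exons. The coding sequences of SIAH1-203 and SIAH2-201 were identical at 73.6% of aligned bases, and the longest identical run of the whole transcripts was 20 bases, against reads of 150 bases.

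The sequences below mark what separates the SIAH1 transcripts. The first is the coding part of the SIAH1-201 first exon, at chr16:48365387-48365477 (minus strand, GRCh38), with its start codon in capitals. The others are the RefSeq promoter windows (GRCh38.p14, minus strand, 5′ to 3′) as far as they lie upstream of each annotated start, at chr16:48385451-48385663 for SIAH1-203 and at chr16:48365902-48366137 for SIAH1-201. Capitals there mark a GC box (GGGCGG, or CCGCCC where it lies on the other strand) and an E-box (CACGTG).
SIAH1-201 first coding part: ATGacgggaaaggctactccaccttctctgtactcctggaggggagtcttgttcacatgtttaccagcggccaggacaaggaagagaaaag
Upstream of SIAH1-203: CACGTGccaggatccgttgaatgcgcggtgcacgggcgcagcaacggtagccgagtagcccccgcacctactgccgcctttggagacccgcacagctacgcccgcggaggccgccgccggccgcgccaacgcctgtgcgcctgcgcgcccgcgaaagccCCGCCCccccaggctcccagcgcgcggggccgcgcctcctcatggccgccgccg
Upstream of SIAH1-201: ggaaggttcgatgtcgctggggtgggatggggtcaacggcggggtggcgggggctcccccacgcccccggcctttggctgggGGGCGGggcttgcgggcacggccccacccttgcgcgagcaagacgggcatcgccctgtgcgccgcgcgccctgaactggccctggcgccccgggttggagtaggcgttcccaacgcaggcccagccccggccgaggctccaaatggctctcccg
The first sequence is present in SIAH1-201 and absent from SIAH1-203. Both upstream stretches hold 1 GC box, and the E-box is in the SIAH1-203 stretch alone.

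The first comparison asked how much RNA of each ligase was present with and without ACK1 inhibition. Both genes were lower in the (R)-9b library, SIAH1 by far more than SIAH2. SIAH1 was counted 1052 times in the vehicle library and 224 times in the (R)-9b library. After scaling of the libraries by the trimmed mean of M-values (TMM), its level was 15.8 CPM (95% Poisson interval 14.9 to 16.8) in vehicle and 3.97 CPM (3.46 to 4.52) in (R)-9b. SIAH1 was thus 3.98-fold lower, with a log2 ratio of -1.99 (95% exact interval -2.21 to -1.78). SIAH2 had 4341 counts in vehicle and 2295 in (R)-9b, or 65.2 CPM (63.3 to 67.2) and 40.6 CPM (39.0 to 42.3). It was 1.60-fold lower, with a log2 ratio of -0.68 (-0.76 to -0.61). Neither gene's counting intervals overlapped between the libraries.

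Many genes differed between the libraries, so the 2 members are read against that background. Of the 23446 genes tested, those with a sum of 10 counts or more, 18% were at least 1.5-fold lower and 20.2% at least 1.5-fold higher. The 95% interval lay wholly below a ratio of 1 for 31.1% and wholly above it for 29.8%. Both SIAH1 and SIAH2 were among the lower genes by either rule. SIAH1 ranked 739 from the lowest ratio, within the lowest 3.15% of all genes tested, and SIAH2 ranked 3636, within the lowest 15.5%. Among 14791 protein-coding genes the ranks were 353 for SIAH1 and 1801 for SIAH2. SIAH1 was thus in the outer part of the distribution, and SIAH2 lay close to the 1.5-fold line.

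**Figure D1:**
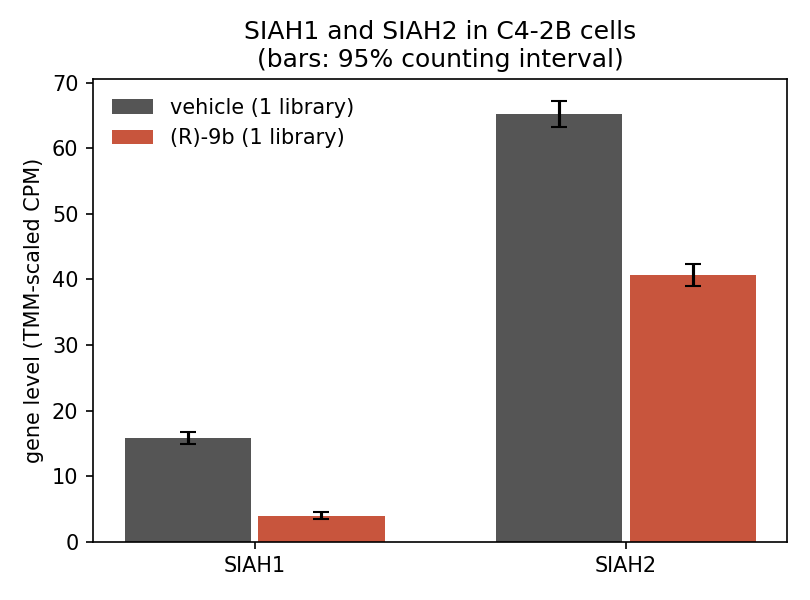
Level of SIAH1 and SIAH2 in each library, in TMM-scaled CPM on a linear axis from 0. Bars are single libraries (grey, vehicle; red, (R)-9b) and whiskers are 95% Poisson intervals of the count. SIAH1 went from 15.8 to 3.97 CPM and SIAH2 from 65.2 to 40.6 CPM, with no overlap of the whiskers within a gene.

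**Figure D2:**
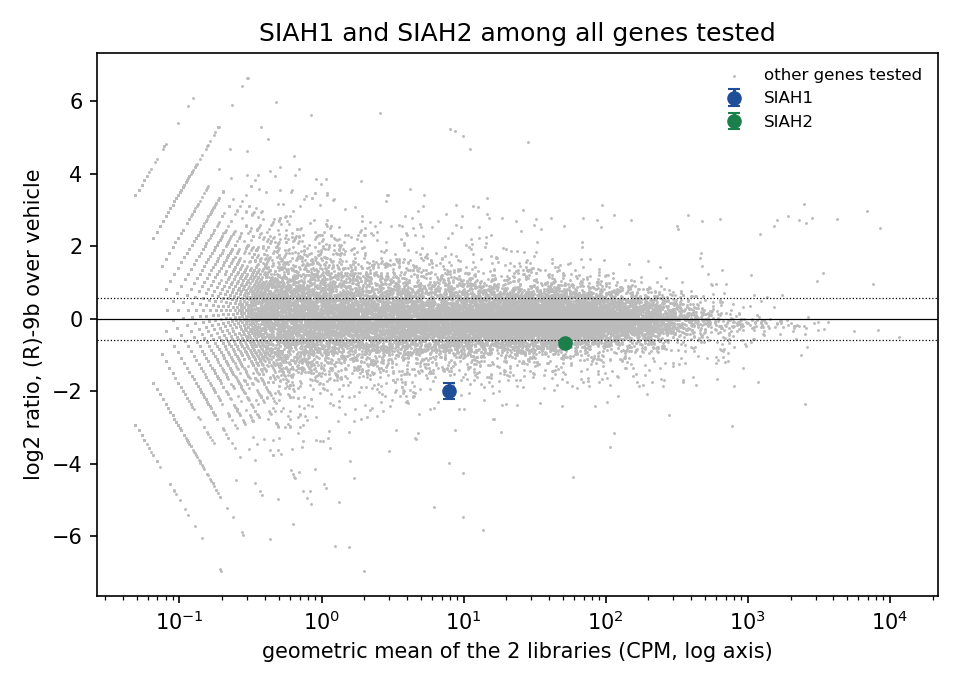
Log2 ratio of (R)-9b over vehicle against the geometric mean level in CPM (log axis) for the genes tested that had counts in both libraries. Dotted lines mark 1.5-fold, and whiskers on the 2 members are 95% exact intervals. SIAH1 (-1.99) sits well below the lower dotted line, and SIAH2 (-0.68) lies just past it.

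The difference between the relatives was then measured directly, since library scaling cancels when 2 genes of the same libraries are compared. The log2 ratio of SIAH2 was higher than that of SIAH1 by 1.31 (95% conditional exact interval 1.09 to 1.54), a 2.48-fold difference in response. SIAH1 made up 19.5% (exact interval 18.5 to 20.6) of the counts of both genes in vehicle and 8.89% (7.81 to 10.1) in (R)-9b. The balance of the pair moved towards SIAH2. The share itself depends on the measure, and its intervals cover the gene counts alone. The transcript estimates summed to 1143 for SIAH1 and 1977 for SIAH2 in vehicle, and to 313 and 1042 in (R)-9b, a larger part for SIAH1 in each library. Per kilobase of transcript, from the estimated transcript counts, SIAH2 was 1.90 times as abundant as SIAH1 in vehicle and 3.63 times in (R)-9b.

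The relatives outside the pair were at or near 0. SIAH3, the third human family member, had 0 counts in vehicle and 2 in (R)-9b, where 3 counts set the floor at 0.0451 CPM and 0.0531 CPM. The pseudogene SIAH1P1 had 0 counts in both libraries. Its longest identical run with the SIAH1-203 transcript was 32 bases, and it was identical to the SIAH1 coding sequence at 83.8% of aligned bases.

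Transcript estimates separated the SIAH1 isoforms. SIAH1-201 had 607 estimated counts in vehicle and 55.9 in (R)-9b, a 9.48-fold lower value with a log2 ratio of -3.25 (-3.67 to -2.85). SIAH1-203 had 490 and 255 estimated counts, a 1.68-fold lower value with a log2 ratio of -0.75 (-0.97 to -0.53). The log2 ratio of SIAH1-203 exceeded that of SIAH1-201 by 2.496 (2.03 to 2.97), or 5.64-fold. SIAH1-201 was the larger isoform in vehicle and the smaller one in (R)-9b. Its share of the estimated SIAH1 counts was 53.1% in vehicle and 17.8% in (R)-9b, while the share of SIAH1-203 was 42.9% and 81.4%.

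The small SIAH1 transcripts were SIAH1-208, at 28.2 and 2.58 estimated counts, and SIAH1-202, at 17.8 and 0. Both lie downstream of the SIAH1-203 start, within the span of SIAH1-201. The other 4 transcripts were listed at 0 in both libraries, including SIAH1-207, the only one that begins at the far end of the annotated gene. Summed over the transcripts that begin at the SIAH1-201 start or downstream of it, SIAH1-201, SIAH1-202 and SIAH1-208 had 653 estimated counts in vehicle and 58.4 in (R)-9b, a log2 ratio of -3.30 (-3.71 to -2.91). The RNA of this downstream group, whose members have separate annotated starts, was 9.85-fold lower, against 1.68-fold for SIAH1-203. These intervals cover counting error and not the error of assigning reads to transcripts, which was not given in the files used here. SIAH1-201 and SIAH1-203 can be told apart only by reads that touch their first exons.

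SIAH2 showed no such split. SIAH2-201 had 1866 estimated counts in vehicle and 984 in (R)-9b, a 1.66-fold lower value with a log2 ratio of -0.73 (-0.84 to -0.62). Its share of the gene was 94.4% in both libraries. The short SIAH2-203 had 99.0 and 56.6 estimated counts, a log2 ratio of -0.60 (-1.10 to -0.12), and the log2 ratio of SIAH2-201 minus that of SIAH2-203 was -0.13 (-0.63 to 0.38), an interval that includes 0. SIAH2-202, which is not annotated as coding, had 12 and 2. The main SIAH2 transcript and SIAH1-203 differed in log2 ratio by 0.02 (-0.23 to 0.27), so a difference beyond that interval was not seen between them. Levels per kilobase of transcript were taken from the deposited transcript CPM, not from the TMM scaling used for the log2 ratios. SIAH2-201 stood at 28.2 CPM in the vehicle library and 17.2 CPM in the other, SIAH1-201 at 9.56 and 1.02, and SIAH1-203 at 8.68 and 5.24. By these estimates the gap between the genes was carried by SIAH1-201 and the small transcripts beside it.

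The size of the isoform shift was set against all genes with at least 100 estimated counts in each library and more than 1 transcript detected. Among these 9431 genes the largest change in the share of any transcript had a median of 6.25 percentage points, and 4.63% of genes reached 30 points. SIAH1 changed by 38.5 points, rank 226 from the largest. SIAH2 changed by 0.417 points, rank 9117. SIAH1 was thus among the few genes with a shift of that size, and SIAH2 was near the bottom of the order.

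**Figure D3:**
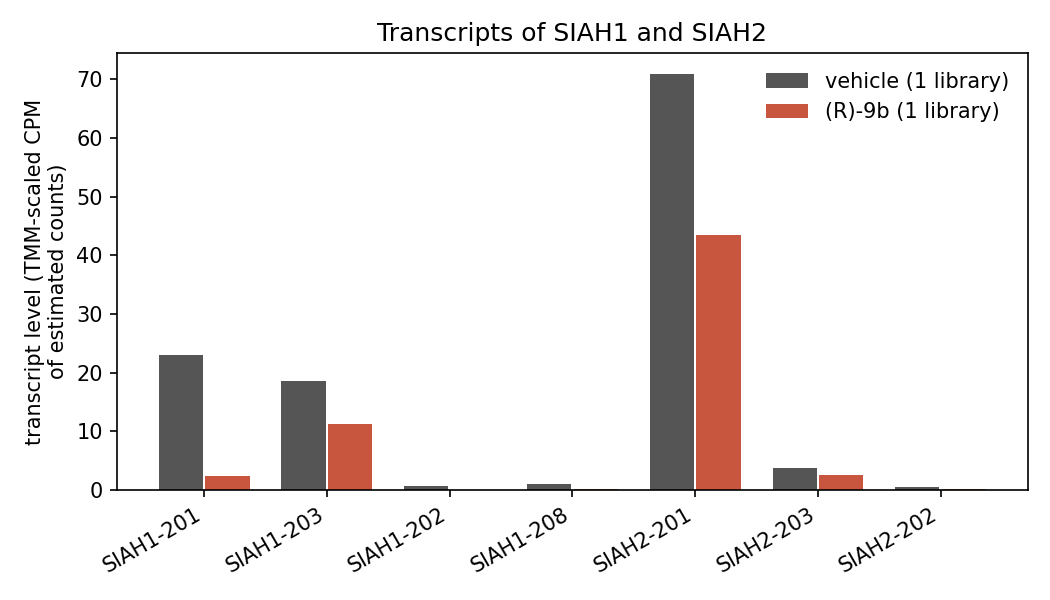
Level of the 7 SIAH1 and SIAH2 transcripts with estimated counts, on a linear axis from 0, with 1 library per bar. The values are the deposited transcript CPM, although the axis label calls them TMM-scaled. SIAH1-201 falls below SIAH1-203 in the (R)-9b library, whereas SIAH2-201 makes up 94.4% of its gene in both.

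The gene counts and the transcript estimates did not give the same size of change for SIAH1. The estimates summed to 1143 in vehicle and 313 in (R)-9b, a log2 ratio of -1.62 (-1.81 to -1.44), against -1.99 from the gene counts. For SIAH2 the estimates summed to 1977 and 1042, with a log2 ratio of -0.68, equal to that of the gene counts at 2 decimals. SIAH1 also had few gene counts for each estimated count, 0.920 in vehicle and 0.715 in (R)-9b. The median over 10091 genes was 2.72 and 2.73, SIAH2 stood at 2.20 in both libraries, and SIAH1 lay within the lowest 5.86% and 4.87% of genes.

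SIAH1 overlaps LONP2, the gene of a peroxisomal Lon protease, which runs on the opposite strand at chr16:48244296-48363122. The overlap takes in 954 bases of the last SIAH1 exon, 39.5% of SIAH1-201 and 44.4% of SIAH1-203, and it covers all 846 coding bases of SIAH1-203 and 848 of the 939 coding bases of SIAH1-201. The strand setting of the counting is not given in the sources used here. Without strand, reads of SIAH1 and of LONP2 in these bases cannot be told apart. The study's methods limit gene counts to uniquely aligned, unambiguous reads, and such a count without strand would leave reads in these bases out. LONP2 had 7616 and 6785 counts, a log2 ratio of 0.07 (0.02 to 0.12). The 4 of 9 LONP2 transcripts whose exons reach into SIAH1-201 or SIAH1-203 summed to 23.3 estimated counts in vehicle and 50.8 in (R)-9b, or 0.725% and 1.79% of LONP2. Their part in the difference between the SIAH1 measures was not tested, and the direction for SIAH1 was the same by both measures.

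For SIAH2 the overlap was small. SIAH2-AS1, an antisense gene at chr3:150761937-150762538, shares 106 bases with SIAH2-201, 4.21% of its length. SIAH2-AS1 had 6 counts in vehicle and 18 in (R)-9b, a log2 ratio of 1.82 (0.43 to 3.44), far below the 4341 and 2295 counts of SIAH2.

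**Figure D4:**
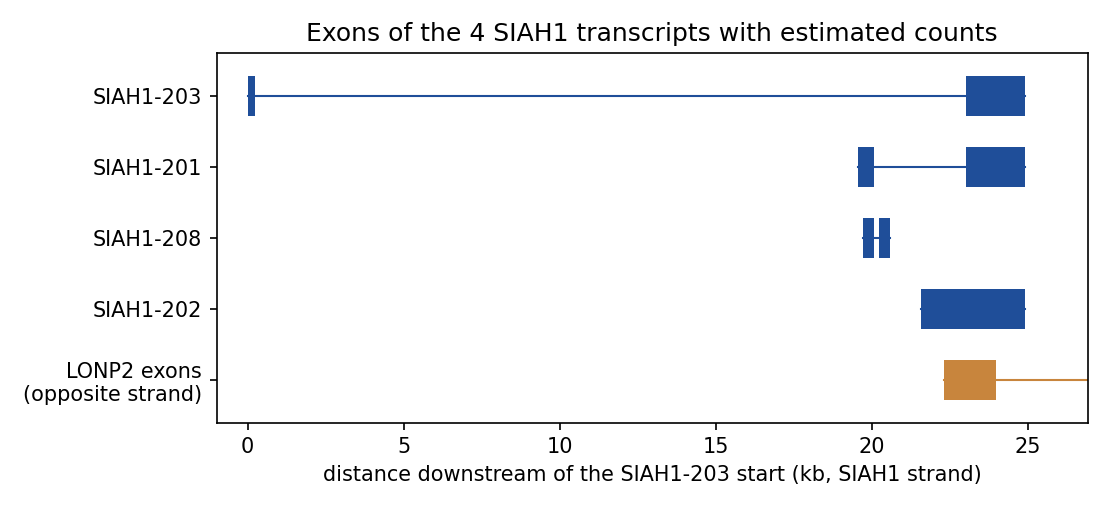
Exons (boxes) and introns (lines) of the 4 SIAH1 transcripts with estimated counts, and the LONP2 exons that face them on the other strand, by distance in kilobases downstream of the SIAH1-203 start. SIAH1-201 starts 19549 bases downstream of SIAH1-203, both end in the same exon of 1900 bases, and LONP2 covers the 954 bases at the upstream side of it.

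The promoters of both genes were rich in GC. Over the 300-base RefSeq windows, from 250 bases before to 50 bases after each RefSeq start, GC content was 77.7% at the upstream SIAH1 start, 72.3% at the downstream SIAH1 start and 76% at SIAH2, against a median of 58.7% over 35116 promoter windows. CpG dinucleotides numbered 50, 27 and 35, against a median of 14. Motifs were searched on both strands by their letters. The GC box GGGCGG occurred once in each SIAH1 window and at 2 places in the SIAH2 window, and 45.0% of all windows held it. The E-box CACGTG occurred at the upstream SIAH1 start and at SIAH2, not at the downstream SIAH1 start, and was present in 7.26% of windows. The hypoxia response core ACGTG, which lies within that E-box, had 2 matches at the upstream SIAH1 start, both of them inside the E-box, and 3 at SIAH2, with 0 at the downstream start, and 21.4% of windows held it. TGACG, the core of cAMP and stress response elements, had 2 matches at SIAH2 and 0 at either SIAH1 start, and 24.6% of windows held it. CCAAT and TATAAA had 0 matches in the 3 windows, and 34.6% and 11.5% of windows held them. The window at the start of SIAH1-201, the transcript with the 9.48-fold lower estimate, was the one without the E-box and with the fewest CpG of the 3. These letters are a description of the windows and not of binding.

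SIAH1 and SIAH2 were next set beside ACK1 and the other proteins that route ACK1 to degradation. TNK2, the ACK1 gene, had 6946 and 5292 counts, a 1.11-fold lower value with a log2 ratio of -0.15 (-0.21 to -0.10), which did not reach 1.5-fold. NEDD4, a HECT-type ligase, had 2122 and 660 counts and was 2.73-fold lower, with a log2 ratio of -1.45 (-1.58 to -1.32). Its relative NEDD4L had 26601 and 24391 counts and a log2 ratio of 0.11 (0.09 to 0.14). SQSTM1, the autophagy receptor p62, had 57064 and 23177 counts and was 2.09-fold lower, with a log2 ratio of -1.06 (-1.08 to -1.04). In this list of 6 genes 4 (66.7%) were at least 1.5-fold lower and 0 higher, beside 18% and 20.2% of all genes tested. The median log2 ratio was -0.87 beside -0.0049 over all genes tested. SIAH1 and SIAH2 are themselves in the list, so its share and median in part restate their values. Of the other genes in it, NEDD4 and SQSTM1 were lower, and TNK2 and NEDD4L were within 1.5-fold.

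A list of 66 other ubiquitin ligases, all tested, gave the setting within the enzyme class. In it 9 genes (13.6%) were at least 1.5-fold lower and 2 (3.03%) higher, beside 18% and 20.2% of all genes tested. The median log2 ratio was -0.22. By the interval rule 42 of the 66 were lower and 14 higher, beside 31.1% and 29.8% of all genes tested. That rule depends on counts, since intervals are narrower for genes with more of them. By gene counts, SIAH1 had the lowest ratio when both members were placed in order with these 66 genes, and SIAH2 was rank 10 of 68. From the transcript estimates SIAH1, at a log2 ratio of -1.62, lay above CBLB at -1.71 and FBXO32 at -1.70. The nearest to SIAH1 were FBXO32, the muscle-atrophy F-box protein, at 483 and 117 counts (3.50-fold lower), and CBLB, a ligase that restrains receptor signalling, at 1834 and 462 counts (3.37-fold lower). BIRC3, an inhibitor of apoptosis with a RING domain, was 1.92-fold higher at 540 and 880 counts, and RNF43, which removes Wnt receptors, was 1.71-fold higher at 130 and 189, a call lost from the transcript estimates (log2 ratio 0.34).

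Few genes whose products work with SIAH proteins passed 1.5-fold. Of 17 partners, which include E2 enzymes, the CACYBP-SKP1-TBL1X adaptor group and the deubiquitinases USP13 and USP19, 1 (5.88%) was at least 1.5-fold lower and 0 were higher, beside 18% and 20.2% of all genes tested, with a median log2 ratio of -0.12. With the library total alone as scaling 3 were lower, UBE2E3 and UBE2E2 among them. PEG3, an imprinted zinc finger protein that binds SIAH1, was the 1 lower gene, at 495 and 234 counts and 1.79-fold. The E2 genes UBE2E3 and UBE2E2 had log2 ratios of -0.57 (-0.65 to -0.48) and -0.53 (-0.61 to -0.44), and UBE2D1 one of 0.34 (0.23 to 0.45), none of them past 1.5-fold under TMM. The values of USP13 and SKP1 were 0.18 (0.11 to 0.25) and 0.16 (0.12 to 0.21).

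Genes of known SIAH substrates passed 1.5-fold in both directions at the RNA level. Of 30 listed, 28 reached 10 counts and were tested, and of these 5 were at least 1.5-fold higher, 5 lower and 18 within that range, with a median log2 ratio of 0.05. The share was 17.9% in each direction, close to the 20.2% higher and 18% lower of all genes tested. From the transcript estimates 1 was higher and 6 were lower of 26, and with a minimum of 50 counts 3 were higher and 5 lower. ELL2, a transcription elongation factor, went from 7607 to 19488 counts, 3.02-fold higher. EGLN1, a prolyl hydroxylase that marks HIF-α, was 1.76-fold lower at 4699 and 2269 counts. NUMB, a Notch inhibitor, and LATS2, a Hippo kinase, were 1.70-fold and 1.68-fold lower. TYK2, a Janus kinase, was 1.54-fold higher, a call lost with the library total alone as scaling (log2 ratio 0.56) and from the transcript estimates (0.41). EGLN2, with 58 and 96 counts, was 1.95-fold higher by gene counts, a log2 ratio of 0.96 (0.48 to 1.46). From the transcript estimates its log2 ratio was -0.32, with a narrower interval (-0.42 to -0.21). The count of higher genes in this list and in the hypoxia list below includes EGLN2 by its gene counts alone. SNCAIP and POU2AF1, each at 6 and 11 counts, were past 1.5-fold with intervals that include a ratio of 1.

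Several regulators of SIAH expression were lower. Of 12 genes listed, ESR1 did not reach 10 counts, and of the 11 tested 7 (63.6%) were at least 1.5-fold lower and 1 (9.09%) higher, beside 18% and 20.2% of all genes tested, with a median log2 ratio of -0.62. Under upper-quartile scaling 5 of the 11 were lower. Among the 7 were 6 genes of the unfolded protein and integrated stress responses, namely ATF4, DDIT3, XBP1, EIF2AK3, ERN1 and ATF6. DDIT3, which encodes the stress factor CHOP, had 17941 and 737 counts and was 20.6-fold lower. ATF4, its upstream activator, had 73113 and 27486 counts (2.26-fold lower), and ERN1, the IRE1 sensor, had 8029 and 3013 counts (2.26-fold lower). EPAS1, which encodes HIF-2α, was 2.36-fold higher at 166 and 332 counts. E2F1, a cell cycle factor, had 5680 and 5458 counts and a log2 ratio of 0.18 (0.13 to 0.23), not past 1.5-fold. SIAH1 and SIAH2 were thus lower in a library in which stress-response genes of this list were lower too, and whether these differences are linked was not tested.

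The hypoxia pathway, in which SIAH ligases act on the prolyl hydroxylases, also held genes that were lower. Of 18 genes tested, 10 (55.6%) were at least 1.5-fold lower and 2 (11.1%) higher, beside 18% and 20.2% of all genes tested, with a median log2 ratio of -0.66. From the transcript estimates 8 of 16 were lower and 1 higher. BNIP3, a mitophagy receptor, was 3.22-fold lower at 41575 and 10965 counts. VEGFA, the angiogenic growth factor, was 2.47-fold lower at 30915 and 10626 counts, and PDK1, a kinase that holds back pyruvate oxidation, was 2.46-fold lower. NDRG1 had a log2 ratio of 0.33 (0.31 to 0.34), within 1.5-fold. The lists overlap, and EPAS1, for example, is in both of the last ones.

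**Figure D5:**
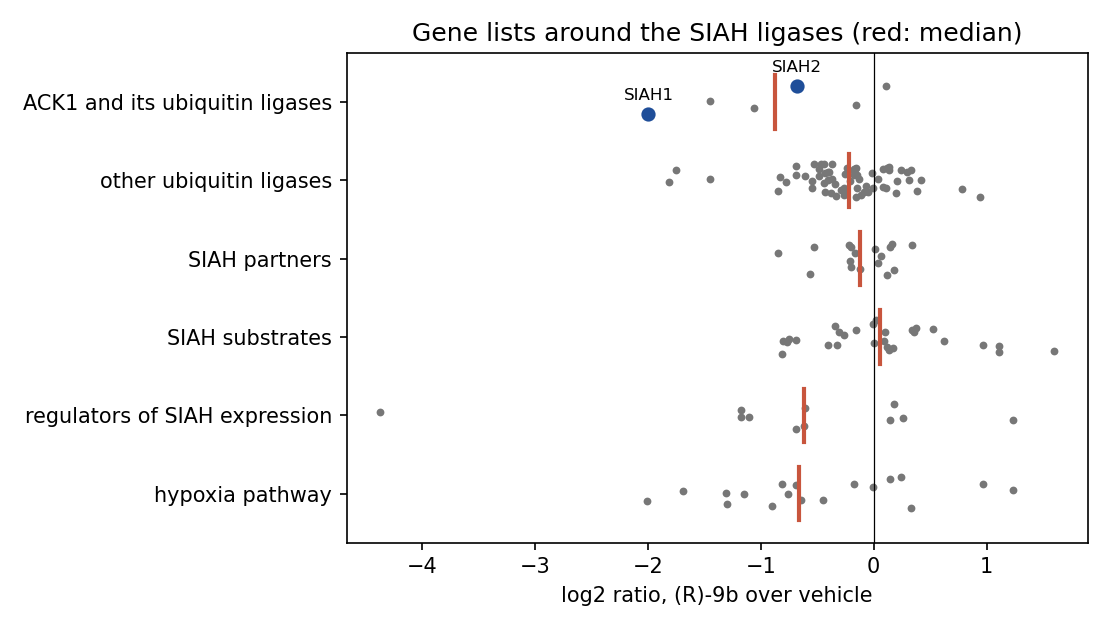
Log2 ratio of (R)-9b over vehicle for every tested gene of the 6 lists around the SIAH ligases (points, spread vertically for visibility), with the median of each list as a red line. SIAH1 at -1.99 lies to the left of every gene in the list of other ubiquitin ligases by these gene counts (from transcript estimates, at -1.62, it lies above CBLB and FBXO32), and the medians of the regulator list (-0.62) and the hypoxia list (-0.66) lie close to the value of SIAH2 (-0.68).

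The protein-coding genes nearest to each member in log2 CPM of vehicle and of (R)-9b were taken by Euclidean distance over these 2 libraries. For SIAH1 they were H2BU1, a histone gene, at 966 and 223 counts, ULBP1, a ligand of the NKG2D receptor, at 963 and 218 counts, and APOLD1 at 920 and 265 counts, with distances of 0.123, 0.133 and 0.310 log2 units. For SIAH2 they were RAB3GAP1, at 4257 and 2309 counts, FAM214A, at 4243 and 2280 counts, and H2AW, at 4300 and 2235 counts, with distances of 0.0295, 0.0343 and 0.0406. The nearness of FAM214A held for gene counts only. From the transcript estimates its log2 ratio was -1.17 (-1.32 to -1.02), against -0.68 for SIAH2. The distances were larger around SIAH1 than around SIAH2, and with 2 libraries they describe levels only.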

How the data were processed

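Per the labels and the study's methods, 1 poly-A library of C4-2B cells was sequenced for each condition. The authors' processing notes name STAR 2.5.1a, featureCounts 1.4.6-p5, Salmon 0.8.2 and hg38, whereas the methods state another STAR version. The deposited gene counts are whole-number reads per gene without normalization, and the deposited CPM are these counts divided by the library total and rescaled. The deposited moderated log2 CPM come from the authors with no description of the moderation. The deposited transcript table holds estimated counts and CPM per transcript. A table of moderated transcript values was not used here.

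Repeated gene lines (200) were dropped. Among genes with up to 20 counts, 72.2% (vehicle) and 70.3% ((R)-9b) of counts were even, so both mates of a read pair may have been counted and intervals may be too narrow. Libraries were scaled with TMM (edgeR 4.0.16, R 4.3.3). Ratios are (R)-9b over vehicle, with exact (Clopper-Pearson) 95% intervals from scipy 1.17.1 under Python 3.11.15. Estimated counts were rounded to whole numbers for intervals. Sequences came from GENCODE 29 and RefSeq, and promoter windows matched both members by symbol. Figures were drawn with matplotlib 3.10.9. The code was tested on simulated counts.

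The members, the gene lists and the tests were chosen with earlier results of these data known. Named genes were both members, all genes of the ACK1 list, the 3 with the largest rise and fall in each other list (by the interval end nearest 0), genes overlapping a member and the 3 nearest in level to each. Other genes were named where a count of a list needed them. A few genes meeting this rule are not reported here. The alternatives were other scalings, the other deposited tables, halved counts, minimum counts of 1 and 50, 5 added counts, a 2-fold rule and protein-coding genes alone.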

Additional observations from a re-analysis of the deposited data

How the results depend on the processing

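With 1 library per condition, no library could be left out. No paired analysis was possible because each condition has 1 library and the labels give no replicate numbers. The log2 ratios of SIAH1 and SIAH2 stayed below 0 under each of 11 alternatives. They ran from -2.05 to -1.62 for SIAH1 and from -0.74 to -0.65 for SIAH2. Among these, halved counts and minimum counts of 1 and 50 cannot change a gene's ratio, and the deposited CPM repeat the library total alone. The difference between the members is likewise fixed under halved counts and the deposited CPM. From the estimated transcript counts summed per gene, SIAH1 moved to -1.62 and the difference between SIAH2 and SIAH1 to 0.94 (0.73 to 1.16), the lowest of its 4 alternatives. The cause was not tested. With counts halved, the intervals widened to -2.30 to -1.70 for SIAH1, -0.79 to -0.58 for SIAH2 and 1.00 to 1.64 for their difference. The share of each SIAH isoform was equal in the deposited transcript CPM, which are the same estimates rescaled.

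Genes at least 1.5-fold higher or lower numbered 8965 and moved to 5187 with the estimated transcript counts, to 17506 with a minimum of 1 count, to 5063 with a minimum of 50 counts, to 4930 under a 2-fold rule and to 4600 among protein-coding genes. The last 4 follow from the number of genes tested or the rule itself. The estimated transcript counts also tested fewer genes, 15498 in place of 23446. SIAH2, at 1.60-fold, did not meet the 2-fold rule, and SIAH1 did. Scaling by the library total alone gave 3 lower partners in place of 1, and 12 lower ubiquitin ligases in place of 9. EGLN2 was the only named gene past 1.5-fold that turned direction, to -0.32 with the estimated transcript counts. Over the other named genes and the counts of lower list members, 505 values under an alternative stayed within the counting interval (counts, within 1.5 times). Another 94 moved beyond it and 1 turned direction. Halved counts and the other minimum counts return a gene's main ratio by design, so part of the values that stayed could not move. The 1.5-fold calls of TYK2 and RNF43 were lost, and that of the marker COL1A1 too (log2 ratio 0.30), with the estimated transcript counts. Depth limits SIAH3 and SIAH1P1, which were at or under 3 counts.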
